A study of Homo sapiens with 16 samples.

Results

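The step from 0.5 h to 1 h of degrader treatment was examined in an ATAC-seq time course of Rh30 cells, as the difference between the 2 libraries at 1 h and the 2 libraries at 0.5 h, over all 40844 regions of the count table in which these times were measured. Rh30 is an established line of alveolar rhabdomyosarcoma, a tumour of the skeletal muscle lineage. The line used here carried PAX3-FOXO1 with an FKBP tag, and all groups, controls included, were of these tagged cells. The 1 h and 0.5 h groups had received 500 nM dTAG47, a degrader that brings a ubiquitin ligase to proteins with the FKBP tag. DMSO was the vehicle control, with no duration given in the labels. Its libraries give the background level and take no part in the contrast of the step. They do share the fit that sets its spread and scaling. They also serve as the reference of the lists and of the first interval. The same experiment, called 6211, also had 2 h libraries, and a separate experiment, called 6086, had 2, 4 and 24 h libraries with DMSO of its own. Of the 16 libraries in the series, 4 define the step. The sources used here do not say whether the tagged line is a single clone. Fusion protein was not measured in these files, so its loss and other effects of dTAG47 cannot be told apart.

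PAX3-FOXO1 is the fusion transcription factor that drives this tumour: it joins the DNA-binding domains of PAX3, a factor of muscle and neural crest development, to the activation domain of FOXO1. It binds enhancers together with myogenic factors and is known for keeping them open. In ATAC-seq a transposase inserts adapters into accessible DNA, so the reads in a region measure how open it is. Comparing 1 h with 0.5 h directly asks which regions close or open within that interval, apart from what had already happened by 0.5 h.

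Regions are given by position on hg19, the human build that the submitters' processing notes name, and are not named by gene, since no annotation of that build was used here, and the cell type could for the same reason not be checked at marker genes. Of the 40844 regions, 39944 were 401 bp wide. Levels are CPM, counts scaled by each library's TMM-adjusted total of reads in regions, and log2 changes are 1 h minus 0.5 h, so a negative value is a loss. The 1 h libraries A and B held 13985582 and 18275976 reads in regions, against 12593868 and 12226314 for 0.5 h libraries A and B. Across regions, the SD of the log2 difference between replicates was 0.19 at 1 h and 0.16 at 0.5 h, while that of the step itself, which averages 2 libraries on each side, was 0.14. The labels do not say that replicates A and B came from separate cultures. The p-values therefore describe spread between libraries, possibly technical.

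No region passed the threshold over the step. With edgeR's quasi-likelihood test at a Benjamini-Hochberg adjusted p under 0.05, 0 regions were lower (0.0% of 40844) and 0 higher (0.0%), with a smallest adjusted p of 0.16. DESeq2 also called 0 regions. At an unadjusted p under 0.05 there were 1417 lower regions (3.47%) and 901 higher ones (2.21%), together 5.68% of all. The balance tilted toward loss at smaller p: 360 lower and 101 higher regions had p under 0.01, 57 and 4 had p under 0.001, and the 100 regions of smallest p comprised 92 lower and 8 higher ones. DESeq2 gave 410 lower and 148 higher regions at an unadjusted p under 0.05.

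Intervals of single regions describe the size of the step in these libraries. They are not adjusted for the number of regions, so they do not bound what was missed across all of them. The 95% interval of the step lay within 2-fold in either direction for 40797 regions (99.9%) and within 1.5-fold for 39336 (96.3%). The estimate itself reached a 1.5-fold loss in 49 regions and a 1.5-fold gain in 0, and a 2-fold loss in 1.

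The losses of smallest p were described in full although none passed. At chr20:40555829-40556229 the libraries held 9.46 and 11.3 CPM at 1 h, against 18.1 and 17.1 CPM at 0.5 h. The DMSO libraries held 21.7 and 20.4 CPM there, so the 0.5 h libraries lay just under the vehicle level and the 1 h libraries well below both. The log2 step was -0.75 (SE 0.13, 95% interval -1.03 to -0.48, edgeR adjusted p = 0.16), a loss of 40.7% of the 0.5 h level. At chr4:86328735-86329135 the values were 11.4 and 12.1 CPM at 1 h, against 19.1 and 18.7 CPM at 0.5 h, with DMSO at 26.0 and 23.6 CPM. Its log2 step was -0.69 (SE 0.12, edgeR adjusted p = 0.16). At chr12:6363019-6363419 there were 6.52 and 6.48 CPM at 1 h, against 12.3 and 11.4 CPM at 0.5 h. Here the 0.5 h libraries fell within the range of the DMSO libraries, 11.5 and 15.2 CPM, or just below it. The log2 step was -0.87 (SE 0.16, 95% interval -1.20 to -0.54, edgeR adjusted p = 0.16), against a log2 change of -0.15 between DMSO and 0.5 h.

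The other two losses of this group looked alike. At chr6:94922918-94923318 the libraries had 20.1 and 18.1 CPM at 1 h, against 29.3 and 28.5 CPM at 0.5 h, a log2 step of -0.60 (SE 0.11, edgeR adjusted p = 0.16). At chr4:109957585-109957985 they had 9.96 and 9.12 CPM at 1 h, against 14.9 and 16.3 CPM at 0.5 h, a log2 step of -0.71 (SE 0.14, edgeR adjusted p = 0.18). In all 5 regions both 1 h libraries lay below both 0.5 h libraries. That separation alone is common in these data: it held for 7377 regions downward (18.1% of 40844) and for 7339 upward (18.0%).

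Experiment 6086 gives a separate reading of these 5 regions. The 2 h libraries of 6211 are outside the contrast of the step but share its fit and spread. In 6211 the log2 change between DMSO and 2 h was -1.62 at chr20:40555829-40556229, -1.56 at chr4:86328735-86329135, -1.28 at chr12:6363019-6363419, -1.31 at chr6:94922918-94923318 and -0.94 at chr4:109957585-109957985. In 6086 the 2 h log2 changes of the matched regions were -1.52, -1.21, -1.28, -1.28 and -1.20 in the same order. All 5 thus belonged to the regions called lower at 2 h in both experiments, where 4.92% of the regions of 6211 and 5.42% of the matched regions were called lower.

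**Figure D1:**
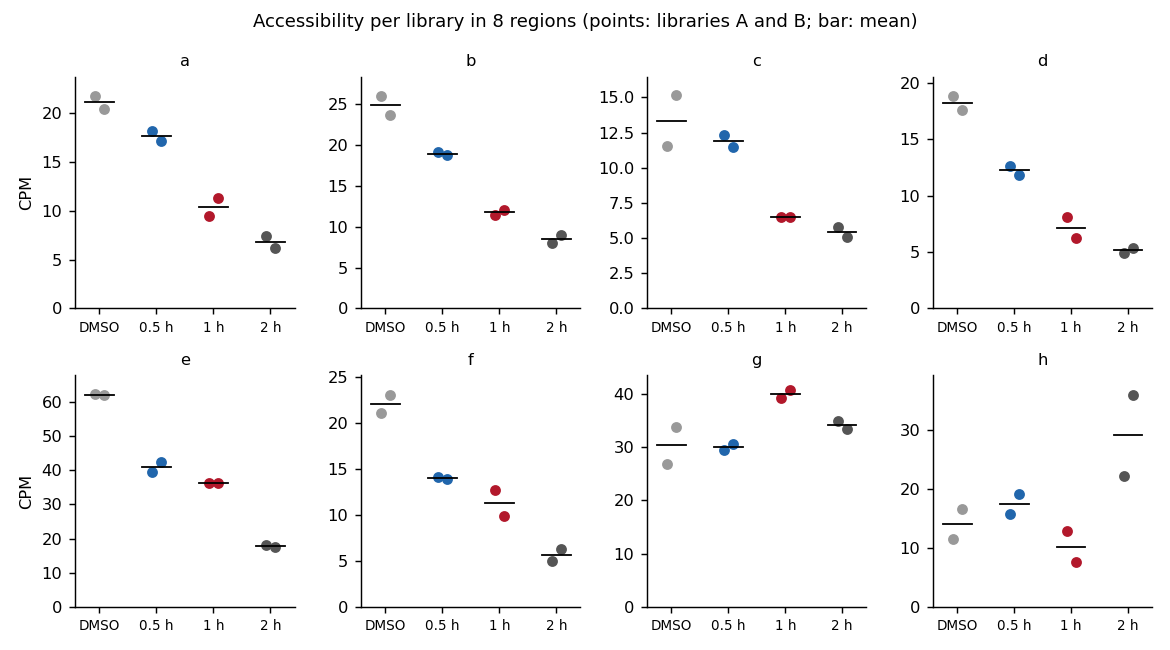
Accessibility in CPM (y axes, from 0) in the 8 libraries of experiment 6211 by group (x axes), with a point per library and a line at the group mean. Panels a to c show chr20:40555829-40556229, chr4:86328735-86329135 and chr12:6363019-6363419, whose 1 h points lie well under their 0.5 h points; d is chr2:229391074-229391474, e chr6:44628192-44628592, f chr5:170008193-170008593, g the gain at chr14:105260491-105260891 and h chr12:58173905-58174305, which is lower at 1 h and highest at 2 h.

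Values on the gaining side were smaller. The region with the smallest p was chr14:105260491-105260891, with 39.2 and 40.7 CPM at 1 h, against 29.5 and 30.6 CPM at 0.5 h (log2 step 0.41, SE 0.10, edgeR adjusted p = 0.58). The 2 h libraries, at 34.9 and 33.3 CPM, lay between, and the DMSO libraries were 26.9 and 33.8 CPM. At chr10:74442412-74442812 there were 12.5 and 14.3 CPM at 1 h, against 9.64 and 9.40 CPM at 0.5 h (log2 step 0.50, SE 0.14, edgeR adjusted p = 0.66). DMSO stood at 11.8 and 11.4 CPM there, above the 0.5 h libraries. The same order, with 0.5 h under DMSO and 1 h over it, was seen at chr22:39147560-39147960, where the libraries had 74.8 and 74.6 CPM at 1 h, against 61.1 and 62.3 CPM at 0.5 h and 69.4 and 67.8 CPM in DMSO (log2 step 0.28, SE 0.07, edgeR adjusted p = 0.65). On chromosome 19, chr19:55659215-55659615 had a log2 step of 0.36 and chr19:3141855-3142255 one of 0.49 (edgeR adjusted p = 0.65 for both). None of these 5 gains was called at 2 h in 6211, where 1.97% of all regions were called higher. In 6086 the matches of chr19:3141855-3142255 and chr10:74442412-74442812 were called lower at 24 h (log2 -1.02 and -0.65), as were 23.3% of matched regions. The match of chr19:55659215-55659615 was not called there (log2 0.10).

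Regions that had already closed at 0.5 h, or that closed most later, were followed through the step as well. Of the 40844 regions, 3 were lower at 0.5 h than in DMSO (0.00735%). The most certain of them, chr6:44628192-44628592, had 36.2 and 36.4 CPM at 1 h, against 39.4 and 42.4 CPM at 0.5 h. Its log2 step was -0.17 (SE 0.09, 95% interval -0.35 to 0.01, edgeR adjusted p = 0.89), between a log2 change of -0.61 in the interval before and -1.02 in the hour after. The other two, chr1:36071004-36071404 and chr7:25817794-25818194, had log2 steps of -0.20 and -0.21 (edgeR adjusted p = 0.88 and 0.89), after -0.65 and -0.66 by 0.5 h. These 3 were chosen for low 0.5 h values, and the 0.5 h libraries are shared by both intervals, so a small step beside a large first change is partly given by the choice.

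The deepest losses at 1 h and 2 h against DMSO were read next. Libraries of the step entered the choice at 1 h and that of the 3 regions above, so their step sizes are not compared. At chr2:229391074-229391474 the libraries held 8.10 and 6.26 CPM at 1 h, against 12.6 and 11.9 CPM at 0.5 h (log2 step -0.79, SE 0.15, edgeR adjusted p = 0.18). At chr1:235344260-235344660 they held 6.95 and 4.50 CPM at 1 h, against 9.56 and 10.2 CPM at 0.5 h (log2 step -0.82, SE 0.21, edgeR adjusted p = 0.65). Both were among the 3 regions with the lowest log2 change at 1 h against DMSO (2.47% of regions called lower), which uses the same 1 h libraries, so their steps are a description. The third, chr18:1017212-1017612, had a log2 step of -0.55. At chr12:66997804-66998204, one of the 3 lowest at 2 h against DMSO, there were 10.7 and 9.12 CPM at 1 h, against 15.1 and 12.9 CPM at 0.5 h (log2 step -0.51, SE 0.14, edgeR adjusted p = 0.70).

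The 5 matched regions with the lowest 4 h change in experiment 6086 were chosen without any library of the step. At chr5:170008193-170008593, the lowest of them, the 1 h libraries held 12.7 and 9.83 CPM, against 14.1 and 13.9 CPM at 0.5 h. Its log2 step was -0.33 (SE 0.14, 95% interval -0.62 to -0.03, edgeR adjusted p = 0.88), beside -0.65 before and -0.99 in the hour after. At chr20:40621177-40621577, close on chromosome 20 to the loss of smallest p, the log2 step was -0.37 (9.60 and 10.9 CPM at 1 h, against 13.1 and 13.5 CPM at 0.5 h). The remaining steps were -0.82 at chr1:235344260-235344660, -0.54 at chr12:66634827-66635227 and -0.41 at chr11:64297103-64297503. In each of the 5, both 1 h libraries were below both 0.5 h libraries, where 18.1% of all regions showed this.

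Lists of regions called against DMSO with no 0.5 h or 1 h library show the step far more clearly than single regions do. In 6086, 2418 of 56945 regions were lower at 2 h (4.25%), and 1606 of them matched a region of 6211. Their median log2 step was -0.15, beside 0.0013 over all 29639 matched regions. The median was -0.11 and -0.13 for 1 h library A against 0.5 h libraries A and B, and -0.17 and -0.19 for 1 h library B against them. The step was negative in 1409 of the 1606 regions (87.7%), against 49.6% of matched regions. Both 1 h libraries were below both 0.5 h libraries in 894 (55.7%) and above them in 42 (2.62%). None passed the adjusted threshold, while 377 (23.5%) were lower at an unadjusted p under 0.05, where 3.47% of all regions were, and 0 were higher.

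The step grew with the depth of the later loss. The 118 matched regions that lost at least 2-fold by 2 h in 6086 had a median log2 step of -0.33, with -0.38 to -0.31 over the 4 library pairs, and all 118 steps were negative. In 77 of them (65.3%) the step was lower at an unadjusted p under 0.05. Among all matched regions, 49.6% of steps were negative and 3.55% were lower at that p. The 1488 with a smaller loss had a median log2 step of -0.14 (-0.17 to -0.11 over the pairs). Binned by the 2 h change in 6086, the median log2 step was -0.41 in the 21 regions below -1.5, -0.32 from -1.5 to -1, -0.25 from -1 to -0.75, -0.18 from -0.75 to -0.5 and -0.10 from -0.5 to -0.25. Over all matched regions, the step and the 2 h change in 6086 were related with Pearson's r = 0.344 and Spearman's rho = 0.244 (n = 29639 regions, which share libraries and are not independent). With the 4 h change r was 0.307, and with the 24 h change 0.217.

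**Figure D2:**
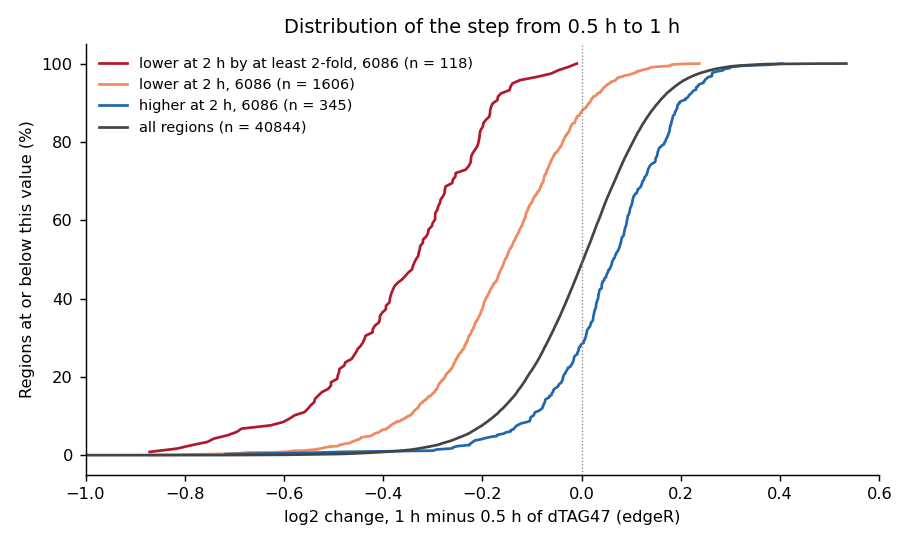
Cumulative share of regions (y axis, percent) by log2 change between 1 h and 0.5 h of dTAG47 (x axis), for all regions and for 3 lists called at 2 h in experiment 6086. The curve of the 118 regions with at least 2-fold loss lies wholly left of 0 with a median of -0.33, that of all 1606 lower regions has its median at -0.15, and that of the 345 higher regions lies right of the curve of all regions for most of its length. The axis starts at -1, and 1 region lies beyond it.

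**Figure D3:**
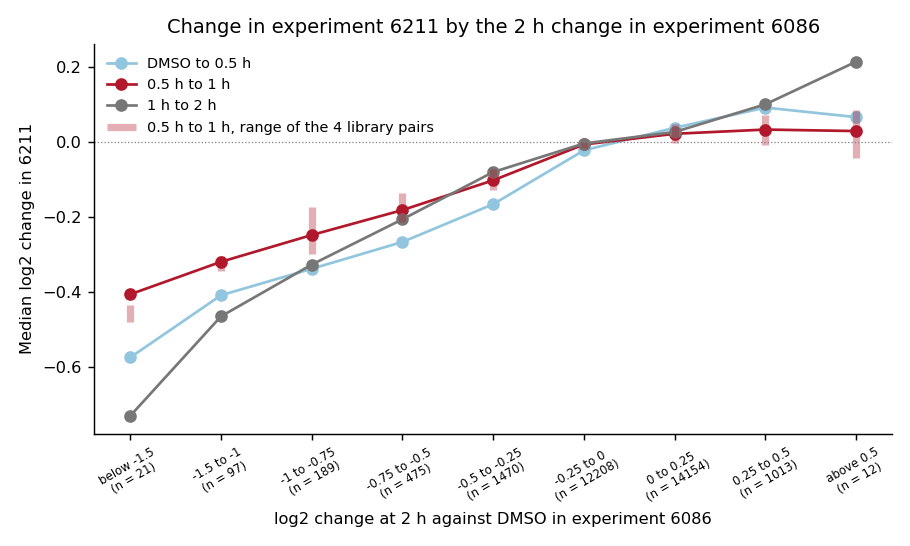
Median log2 change in experiment 6211 (y axis) over 3 intervals, for regions binned by their 2 h change in experiment 6086 (x axis, log2, with the number of regions per bin). The red bars are the range of medians over the 4 pairs of a 1 h and a 0.5 h library, computed from log2 CPM, so the fitted median of the 21 regions in the leftmost bin, -0.41, can lie outside them; the median step deepens with each bin of larger loss, and the rightmost bin holds 12 regions.

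Lists of losses called at later times, which overlap the earlier ones, had smaller steps. Regions lower at 4 h in 6086 (5.44% of 56945, with 2107 matched, 7.11% of matched regions) had a median log2 step of -0.12, and 1727 of them (82.0%) were negative. Those lower at 24 h (18.6%, with 6897 matched, 23.3%) had a median of -0.03 (59.1% negative). The 4842 matched regions lower at 24 h but called at neither 2 h nor 4 h had a median of 0.0012 with 49.6% negative, a share equal to that of all matched regions at this precision. In them 119 regions were lower (2.46%) and 109 higher (2.25%) at an unadjusted p under 0.05, against 3.55% and 2.12% of all matched regions.

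Regions that gained accessibility moved less and depended on 1 library. The 345 matched regions higher at 2 h in 6086 (0.978% of 56945 called) had a median log2 step of 0.06. The step was positive in 248 of them (71.9%), against 50.4% of matched regions. The 4 pair medians ran from 0.02 to 0.11, with both pairs of 1 h library B (0.11 and 0.09) above both pairs of 1 h library A (0.03 and 0.02). When 1 h library B was left out, the median was 0.018. Of the 345, 27 were higher and 4 lower at an unadjusted p under 0.05 (7.83% and 1.16%, against 2.21% and 3.47% of all regions). The 555 matched regions higher at 4 h (1.75% of 56945 and 1.87% of matched regions called) had a median of 0.04, and 0.018 without 1 h library B. The 3593 higher at 24 h (13.6% and 12.1% called) had a median of 0.017, and -0.00040 without 1 h library B.

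The same was read from the 2 h libraries of experiment 6211, which are outside the contrast of the step but share its fit and spread. The 2009 regions lower at 2 h than DMSO had a median log2 step of -0.16 (-0.19 to -0.11 over the pairs). The step was negative in 1797 of them (89.4%), against 48.9% of all regions. Of the 2009 regions, 510 (25.4%) were lower at an unadjusted p under 0.05, against 3.47% of all regions, and 0 were higher. The 806 higher regions (1.97% of 40844) had a median of 0.06, with 531 positive (65.9%, against 51.1% of all regions). Yet 82 of them (10.2%) were lower at an unadjusted p under 0.05, more than the 57 (7.07%) that were higher. Of those 82, 69 lay in 1 stretch of chromosome 12 described further on.

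Set between its neighbouring intervals, the step held 27.4% of the loss between DMSO and 2 h in the regions lower at 2 h in 6086, and 27.7% in those with at least 2-fold loss. For the 1606 regions lower at 2 h in 6086, the library medians around the mean of the 8 libraries were 0.29 ± 0.07 in DMSO, 0.06 ± 0.01 at 0.5 h, -0.08 ± 0.04 at 1 h and -0.25 ± 0.0031 at 2 h (SD, n = 2). The DMSO to 0.5 h interval thus held 41.5% of the change between DMSO and 2 h, the step 27.4% and the hour after it 31.1%. Per 0.5 h, the change was -0.22 before the step, -0.15 in the step and -0.08 after it. For the 118 regions with at least 2-fold loss, the shares were 33.2%, 27.7% and 39.1%, and the changes per 0.5 h were -0.42, -0.35 and -0.25. For the 345 higher regions, the step held 21.6% of the gain, 0.06 out of 0.27, but 7.01% with 1 h library A alone and 36.1% with 1 h library B alone. For the 1606 lower regions these single-library shares were 22.4% and 32.5%. Neighbouring intervals share libraries, and the duration of DMSO is not given, so the first interval is 0.5 h of dTAG47 rather than 0.5 h of elapsed time.

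**Figure D4:**
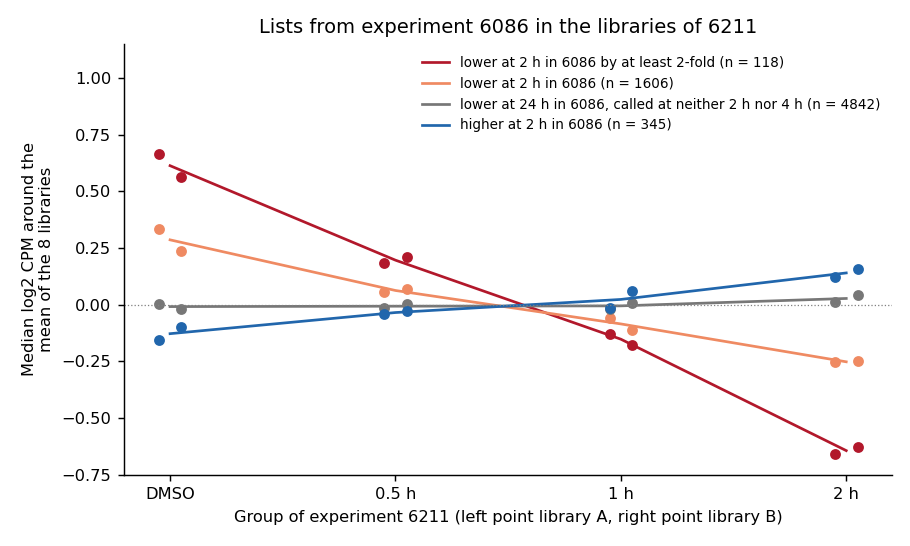
Median log2 CPM around the mean of the 8 libraries of experiment 6211 (y axis) by group (x axis) for 4 lists called in experiment 6086, with a point per library and lines through the group means. For the 118 regions with at least 2-fold loss both 1 h points (-0.13 and -0.18) lie below both 0.5 h points (0.18 and 0.21). The 4842 regions called lower at 24 h but at neither 2 h nor 4 h stay near 0 in these groups.

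The difference in pace was tested directly and was not detectable for single regions. The contrast of the step with the change between DMSO and 0.5 h gave 0 regions lower (0.0%) and 0 higher (0.0%) in edgeR at an adjusted p under 0.05, with 538 and 453 at an unadjusted p under 0.05, and DESeq2 called 0 with 132 at an unadjusted p under 0.05. Its standard error was a median of 0.22, wider than the 0.12 of the step. Among the 1606 regions lower at 2 h in 6086 the median of this contrast was 0.08, meaning less loss in the step than before. Of the 1606, 52 were positive and 9 negative at an unadjusted p under 0.05. Of all 40844 regions, 453 were positive and 538 negative, together 2.43%. Set against the hour that followed, taken per 0.5 h, the contrast also gave 0 lower (0.0%) and 0 higher (0.0%) regions, with 972 and 895 at an unadjusted p under 0.05. DESeq2 called 0 there as well, with 401 at an unadjusted p under 0.05, while 86 lower and 3 higher regions were called with only the 0.5, 1 and 2 h libraries in the fit.

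The count of called regions depended on which libraries informed the spread. With only the 4 libraries of the step in the fit, 36 regions were lower (0.0881% of 40844) and 1 higher (0.00245%), the higher one being chr14:105260491-105260891 (adjusted p = 0.042). The 4 libraries varied less than all 8, with a biological coefficient of variation of 5.34% against 5.96%, and leave 2 residual degrees of freedom in place of 4. The prior degrees of freedom, which carry the spread pooled over regions, were 54.5 with 4 libraries and 19.6 with 8. All 5 losses of smallest p were among the 36, with adjusted p between 0.0027 and 0.0084, as were chr2:229391074-229391474 (0.014) and chr1:235344260-235344660 (0.042). Without the DMSO libraries alone, 7 regions were lower and 0 higher. Leaving out 1 h library A from the fit of 1 h and 0.5 h libraries gave 918 lower regions, and leaving out 1 h library B gave 25. The count was 40 when 0.5 h library A was dropped, and 11 when 0.5 h library B was. Higher regions numbered 609 when 1 h library A was left out and at most 1 when any other was. With 1 library left at a time, it is assumed to vary like the others.

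The 36 regions did not share 1 course. In the 2 h and DMSO libraries, which this fit did not contain, 17 of the 36 were lower at 2 h (47.2%, against 4.92% of all regions) and 17 were higher (47.2%, against 1.97%). The 17 lower ones lay on 9 chromosomes. Their library medians around the mean of 8 libraries were 0.77 and 0.62 in DMSO and 0.37 and 0.33 at 0.5 h. They were -0.24 and -0.38 at 1 h and -0.67 and -0.74 at 2 h, so that each time lay below the one before. The falls in the step and between DMSO and 2 h were given by the choice of these 17 regions. All 15 of them that matched a region of 6086 were lower at 2 h and at 24 h there, with median log2 changes of -1.28 and -2.21.

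The other 19 of the 36 had positive log2 changes between DMSO and 2 h. Of these, 12 lay on chromosome 12 between 57 and 59 Mb, and all 12 were called higher at 2 h, as were many other regions of that stretch. At chr12:58173905-58174305, for example, the libraries held 12.8 and 7.52 CPM at 1 h, against 15.8 and 19.1 CPM at 0.5 h, while DMSO had 11.5 and 16.6 CPM and 2 h had 22.3 and 35.9 CPM. The 1 h libraries thus overlapped the DMSO libraries. The remaining 7 lay on 6 other chromosomes, and 5 of them were higher at 2 h. At chr1:121484617-121485017, one of the regions with the highest counts of the table, there were 521.7 and 446.7 CPM at 1 h, against 639.2 and 726.4 CPM at 0.5 h, with 508.7 and 713.0 CPM in DMSO. At chr16:46391825-46392225, the only region whose estimated loss over the step exceeded 2-fold, there were 4.80 and 3.73 CPM at 1 h, against 8.06 and 10.1 CPM at 0.5 h, with 5.03 and 9.32 CPM in DMSO. In these 3 regions DMSO library A lay within or next to the range of the 1 h libraries, and DMSO library B within that of the 0.5 h libraries.

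**Figure D5:**
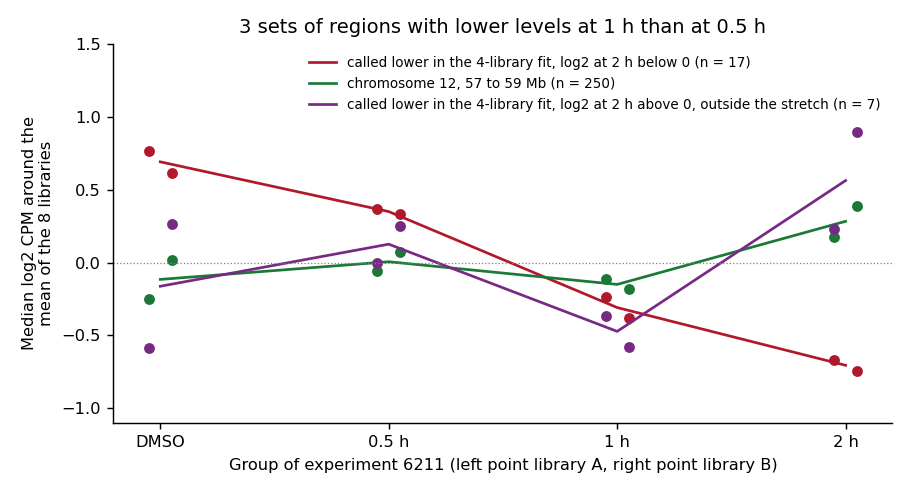
Median log2 CPM around the mean of the 8 libraries of experiment 6211 (y axis) by group (x axis), with a point per library, for the 17 regions called lower with 4 libraries that lie below DMSO at 2 h, for all 250 regions on chromosome 12 between 57 and 59 Mb, and for the 7 other regions called lower that lie above DMSO at 2 h. The first set declines at every time, and the other two have their lowest mean at 1 h, their highest at 2 h and DMSO libraries far apart (-0.59 and 0.26 in the set of 7). The sets of 17 and 7 were chosen by their fall in the step and their side of DMSO at 2 h, so these parts of their courses are given.

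The chromosome 12 stretch as a whole moved with the step. Its 250 regions had a median log2 step of -0.17, and 205 of them were negative. Both 1 h libraries were below both 0.5 h libraries in 120 (48.0%, against 18.1% of all regions). They were above them in 15, against 18.0% of all regions. At an unadjusted p under 0.05, 89 (35.6%, against 3.47% of all) were lower and 3 (1.2%, against 2.21%) higher. At 2 h against DMSO, 2 of the 250 were called lower (0.800%, against 4.92% of all). Of the 806 regions called higher at 2 h over the whole table, 681 lay outside the stretch and the others within it. The median log2 change of the 250 between DMSO and 2 h was 0.41. Library medians around the mean of 8 were -0.25 and 0.02 in DMSO, -0.06 and 0.07 at 0.5 h, -0.12 and -0.18 at 1 h and 0.18 and 0.39 at 2 h. The replicates differed there by medians of 0.10 at 1 h and 0.11 at 0.5 h. The stretch held 3 of the 5 regions with the highest mean count of the table, among them chr12:58146021-58146421 at 1001 and 1039 CPM at 1 h, against 911.4 and 979.8 CPM at 0.5 h. Adjusting the same p-values without the stretch left 0 calls in either direction in the fit of 8 libraries. Copy number was not measured here, and its part in the result was not tested.

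Ranking regions by their step and reading them at 2 h against DMSO gave the same asymmetry. The 2 h calls of 6211 share the fit of the step and its spread, and only those of 6086 are separate. Over all 40844 regions, 4.92% were called lower and 1.97% higher at 2 h in 6211. Of the 1417 regions lower at an unadjusted p under 0.05, 510 (36.0%) were lower at 2 h in 6211 and 82 (5.79%) higher. Outside the chromosome 12 stretch, 509 (38.3%) of 1328 were lower and 13 (0.979%) higher, against 4.94% and 1.68% of all regions outside it. Of the 57 lower regions at p under 0.001, 43 (75.4%) were lower at 2 h and 5 (8.77%) higher. In 6086, 377 of the 1051 matched regions lower at p under 0.05 were lower at 2 h (35.9%, against 5.42%) and 4 were higher (0.381%, against 1.16%). Of the 901 higher regions at an unadjusted p under 0.05, 0 were lower and 57 (6.33%) higher at 2 h in 6211. Of the 628 of these that matched, 0 were lower and 27 (4.30%) higher at 2 h in 6086, against 1.16% of matched regions.

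Small shifts followed the level and the chromosome. With the regions split into 4 classes of equal size by mean level, the median log2 step was -0.019, -0.013, 0.0017 and 0.031 by increasing level, and with a loess offset it lay between -0.00082 and 0.0049 in all 4. By chromosome, the medians ran from -0.03 on chromosome 4 to 0.05 on chromosome 19. At an unadjusted p under 0.05, chromosome 4 had 111 lower regions (6.40%) and 25 higher (1.44%), and chromosome 19 had 8 lower (0.475%) and 94 higher (5.59%). The chromosome 19 median was 0.05 with the loess offset and between 0.02 and 0.07 when any 1 library of the step was left out. Regions lower at 2 h were 1.96% of chromosome 19 and 6.05% of chromosome 4. Chromosome 22, at 0.05, and chromosome 17, at 0.03, lay next to chromosome 19. The replicates themselves differed by class: the median log2 difference of A minus B was -0.02 at 1 h and -0.05 at 0.5 h on chromosome 19, and 0.02 at both times on chromosome 4. The 900 regions wider than 401 bp had a median of -0.019, which was -0.07 when 1 h library A was left out and 0.02 when 1 h library B was.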

How the data were processed

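Raw read counts per region were taken from the 2 count tables the authors deposited, as whole numbers that sum to a total of their own in every library. The submitters' processing notes list the builds hg19 and dm3, the trimmer Trimmomatic 0.32, the aligner Bowtie2 and the peak caller Genrich 0.6.1, besides deepTools, DESeq2 and DiffBind, with no role or order. Transposase shift, duplicate and mitochondrial read handling are not given in the sources used here. Treatment and time in a column's name gave its group. The letters A and B could not be tied to the labels' replicate numbers. No column lay outside the groups.

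The step was tested in R 4.3.3 with edgeR 4.0.16 (TMM, filterByExpr, quasi-likelihood F-test, two-sided), with all 8 libraries of 6211 in 1 fit and the contrast of 1 h with 0.5 h, and adjusted by Benjamini-Hochberg over all 40844 regions, of which the filter removed none. Standard errors are the log2 change over the square root of F, and log2 CPM used a prior count of 2. The table of 6086 was fitted likewise. Its regions were paired with those of 6211 where each covered at least 50% of the other and had no second partner (bedtools 2.31.1). Replicate pairs differed beyond counting noise (chi-square per degree of freedom 2.66 at 1 h and 1.41 at 0.5 h). The 1 h libraries were deeper, which narrows their counting error only.

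Named regions were, for the step, those past the threshold or, with none, the 5 of smallest p in each direction. To these were added the 3 regions lower at 0.5 h, the 3 lowest each at 1 h and 2 h against DMSO, and the 5 matched regions lowest at 4 h in 6086, making 21 in all. Regions called only with 4 libraries and named were chosen after their values were seen. The regions and lists were chosen with earlier results of these data known. Gene lists, markers and motifs were not used here, for want of an hg19 annotation. Alternatives were DESeq2 1.42.0, other scalings (limma 3.58.1 for loess), filters, a block for the library letter, and leaving out libraries or groups. The authors' comparison tables with DMSO were not used.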

Additional observations from a re-analysis of the deposited data

How the results depend on the processing

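In the 8-library fit, the counts of 0 lower and 0 higher regions stayed at 0 with DESeq2, library size only, median-ratio factors and a loess offset. Some settings could hardly differ. The filter had removed no region, and a mean count of at least 30 gave the same 1417 lower and 901 higher regions at an unadjusted p under 0.05. Leaving out the chromosome 12 stretch only readjusted the same p-values, again with 0 calls. The counts became 36 and 1 with only the 4 libraries of the step, and 7 lower without DMSO in the fit. Leaving out 1 library, with or without the other groups in the fit, gave 0 to 918 lower regions (918, 25, 40 and 11 with only 0.5 h and 1 h libraries, leaving out 1 h A, 1 h B, 0.5 h A and 0.5 h B) and 0 to 609 higher ones. A lone library is then assumed to vary like the others. The letter as a replicate block gave 0 and 0 with 8 libraries, and 111 and 3 with 4. The A minus B differences of 1 h and 0.5 h correlated at 0.012, and those of other group pairs between -0.052 and 0.21, the highest being 1 h with DMSO, so the letters were not treated as pairing the libraries. The pace against the following hour had 86 lower and 3 higher regions with only its groups in the fit.

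Leaving out single libraries moved the median log2 step to between -0.19 and -0.13 for regions lower at 2 h in 6086. For those with 2-fold loss it lay between -0.39 and -0.31, and for smaller losses between -0.17 and -0.12. It lay between -0.15 and -0.11 for regions lower at 4 h. For regions lower at 2 h in 6211 it lay between -0.21 and -0.12. For regions called lower at 24 h but at neither 2 h nor 4 h it lay between -0.016 and 0.011. For regions higher at 2 h in 6086, 4 h in 6086 and 2 h in 6211 the ranges were 0.018 to 0.093, 0.018 to 0.058 and 0.016 to 0.082. The lowest of the 4 level classes was at -0.027 with library size only and -0.00082 with loess, and the highest at 0.0044 with loess. The cause was not tested. No named region changed direction under any alternative run. Of the 21, 8 passed with 4 libraries, 9 with 4 libraries and the block, and 5 without DMSO.

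With 2 libraries a group, the median standard error of the step was 0.12 (log2). In the fit of 8 libraries no change of a single region passed, not even the 1 estimated loss beyond 2-fold. A change of all regions alike would not be seen after scaling. The alternatives with the 4-library block, the 4-library leave-outs, the groups left out, other scalings of the level classes, the alternatives for the pace against the following hour, DESeq2 for the list medians, and the lists split at 2-fold or called only at 24 h were chosen after seeing the data.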
